A study of Mus musculus with 2 samples.

Results

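Proliferating keratinocytes were taken from 2 single-cell libraries of mouse dorsal skin, 1 from a wildtype C57BL/6J mouse and 1 from an Eppk1-/- mouse backcrossed to C57BL/6J. Eppk1 encodes epiplakin, a cytolinker of epithelial cells, and the knockout is carried by all cells of the animal. Neither animal received a treatment, and each library comes from the cells of a punch biopsy that was dissociated enzymatically. RNA was read with the 10x Flex assay, which counts pairs of probes ligated on fixed RNA as unique molecular identifiers (UMIs). The age of the animals is not given in the sources used here. Of 9179 wildtype and 8811 knockout barcodes deposited, 8875 and 8617 passed the filter on UMIs, genes and mitochondrial share. A cell was called a keratinocyte when Dsp, Perp, Sfn, Krt5, Krt14, Krt15 and Krt10 together made up at least 1% of its UMIs and 4 collagen and matrix genes (Col1a1, Col1a2, Col3a1 and Dcn) under 0.5%. It was called proliferating when it held at least 3 UMIs of Mki67, Top2a, Cdk1 and Cenpf. This left 171 of 5490 wildtype and 157 of 4043 knockout keratinocytes, 328 cells in all. These cells were selected on their measured counts, so their levels of the 15 genes above, and every difference from keratinocytes below the limit, are descriptions without a test. With 1 library per genotype there was no replicate check on any difference between genotypes, and no p-value could be given. All intervals are 95% intervals and cover counting error only.

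Renewal of the epidermis and hair follicle depends on division of keratinocytes attached to the basement membrane. A dividing cell licenses its replication origins, copies its DNA together with new histones in S phase, and then builds a spindle and separates its chromosomes in mitosis. Ki-67 (Mki67) coats mitotic chromosomes, topoisomerase II alpha (Top2a) untangles DNA, Cdk1 is the kinase that drives entry into mitosis, and Cenpf is a kinetochore protein of late cell cycle. Genes of late cell cycle are known to be repressed in resting cells through a promoter element called CHR and activated through CCAAT boxes, and many genes of DNA replication are regulated through E2F sites.

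The promoters of the 4 selecting genes are shown because all of them carry the elements of late cell cycle genes. They run from 200 bases before to 20 bases after the start of transcription (RefSeq, GRCm38.p6, 5′ to 3′). Capitals mark CCAAT boxes (CCAAT), CHR elements (TTTGAA or TTCGAA) and E2F sites (TTTCCCGC, TTTCGCGC, TTTGCCGC or TTTGGCGC), searched on both strands.
Mki67, chr7:135716360-135716579, minus strand: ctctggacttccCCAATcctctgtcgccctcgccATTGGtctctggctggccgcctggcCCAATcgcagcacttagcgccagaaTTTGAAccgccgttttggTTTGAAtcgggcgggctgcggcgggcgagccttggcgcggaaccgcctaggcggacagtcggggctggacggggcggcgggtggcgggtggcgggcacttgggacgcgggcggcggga
Top2a, chr11:99024170-99024389, minus strand: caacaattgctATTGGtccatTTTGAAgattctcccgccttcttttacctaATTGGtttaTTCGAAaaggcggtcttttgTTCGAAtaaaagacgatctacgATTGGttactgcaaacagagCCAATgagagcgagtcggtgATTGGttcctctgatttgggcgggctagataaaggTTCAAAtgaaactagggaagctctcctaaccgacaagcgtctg
Cdk1, chr10:69352893-69353112, minus strand: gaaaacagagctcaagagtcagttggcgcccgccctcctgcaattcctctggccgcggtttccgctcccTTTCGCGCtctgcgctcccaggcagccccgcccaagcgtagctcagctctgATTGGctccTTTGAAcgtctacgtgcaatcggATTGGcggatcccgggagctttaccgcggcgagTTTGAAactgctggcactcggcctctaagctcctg
Cenpf, chr1:189688067-189688286, minus strand: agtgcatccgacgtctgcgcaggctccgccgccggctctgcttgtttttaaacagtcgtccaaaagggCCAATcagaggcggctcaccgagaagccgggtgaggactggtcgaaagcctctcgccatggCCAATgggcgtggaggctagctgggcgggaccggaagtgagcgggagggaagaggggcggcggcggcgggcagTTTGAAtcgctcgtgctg

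A further 4 promoters show genes described below, Hmmr and Bub1 of the mitotic group and Mcm5 and Mcm6 of the replication group. In both Mcm promoters an E2F match on 1 strand overlaps a match on the other.
Hmmr, chr11:40733418-40733637, minus strand: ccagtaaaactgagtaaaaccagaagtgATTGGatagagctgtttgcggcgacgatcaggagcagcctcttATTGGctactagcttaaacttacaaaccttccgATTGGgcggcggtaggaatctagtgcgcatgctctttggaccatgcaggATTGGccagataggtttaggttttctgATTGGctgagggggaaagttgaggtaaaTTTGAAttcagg
Bub1, chr2:127831840-127832059, minus strand: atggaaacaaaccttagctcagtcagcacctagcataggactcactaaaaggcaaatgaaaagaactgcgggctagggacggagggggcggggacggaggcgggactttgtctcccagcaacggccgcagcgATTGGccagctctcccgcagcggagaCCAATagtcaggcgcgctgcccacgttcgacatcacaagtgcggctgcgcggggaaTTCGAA
Mcm5, chr8:75109309-75109528, plus strand: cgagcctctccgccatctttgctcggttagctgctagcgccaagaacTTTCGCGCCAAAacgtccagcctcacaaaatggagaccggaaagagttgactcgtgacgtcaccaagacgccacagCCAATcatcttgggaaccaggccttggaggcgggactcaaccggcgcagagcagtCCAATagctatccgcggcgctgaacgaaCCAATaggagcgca
Mcm6, chr1:128359686-128359905, minus strand: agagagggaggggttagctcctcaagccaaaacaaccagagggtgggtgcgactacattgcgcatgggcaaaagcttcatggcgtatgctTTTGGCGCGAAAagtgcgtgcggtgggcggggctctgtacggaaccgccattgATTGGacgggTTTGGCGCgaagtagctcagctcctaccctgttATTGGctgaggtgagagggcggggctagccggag

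In windows of 250 bases before to 50 after the start, each of the 4 selecting genes held at least 2 CCAAT boxes and a CHR element. Promoters were found for 42 of 50 genes of the G2 and M phase list (Tubb4b, Anln and others, without the 4 selecting genes), and 24 of them (57.1%) held both elements, against 1034 of 14935 promoters of all genes in the files (6.92%). The S phase list (Pcna, Rrm1 and others) had 30 of 43 promoters, of which 12 (40%) held an E2F site and 4 (13.3%) both a CCAAT box and a CHR element. E2F sites stood in 1 of the 42 G2 and M phase promoters (2.38%) and in 454 of all 14935 (3.04%). Among 3919 promoters of genes detected in the proliferating cells, 249 (6.35%) held both elements and 175 (4.47%) an E2F site. These are matches of letters and not measured binding.

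Proliferating cells made up 3.11% of wildtype keratinocytes (Clopper-Pearson interval 2.67 to 3.61) and 3.88% of knockout keratinocytes (3.31 to 4.53). The intervals overlap. As a share of all cells that passed the filter the order was the other way, 1.93% (1.65 to 2.23) in wildtype and 1.82% (1.55 to 2.13) in the knockout, since keratinocytes were a smaller part of the knockout library. The proliferating cells were deeper than the keratinocytes with 0 UMIs of the 4 genes, with medians of 7106 against 4472 UMIs in wildtype and 6810 against 4458 in the knockout, and held 1550330 and 1178283 UMIs in total. The share that passed differed with depth, and the cause was not tested. Among keratinocytes under 3000 UMIs, 1.29% in wildtype and 2.24% in the knockout passed, among those with 6000 to 12000 UMIs 7.02% and 7.34%, and among deeper ones 5.43% and 6.47%. After each keratinocyte was thinned to 2000 UMIs, leaving out 545 wildtype and 475 knockout cells that were shallower, 2.14% (1.76 to 2.59) and 2.89% (2.36 to 3.49) still held 3 or more UMIs of the 4 genes. In cells called fibroblasts by their collagens, with median depths of 6838 and 6172 UMIs, the same limit was met by 0.29% (5 of 1722) in wildtype and 0.185% (5 of 2701) in the knockout. Keratinocytes rich in Lor, Flg and Flg2, which lie in the outermost living layers, had 0 of 92 and 0 of 42 such cells at median depths of 17168 and 22622 UMIs, which allows shares of up to 3.26% and 7.14% (taken as 3 counts of the total, with Clopper-Pearson upper bounds of 3.93% and 8.41%). At least 1 UMI of the 4 genes was held by 9 of these 92 cells (9.78%) and 1 of the 42 (2.38%). Among all keratinocytes it was 9.98% in wildtype and 11.2% in the knockout. Droplet barcodes that occur in both libraries numbered 1211, and 24 wildtype and 28 knockout proliferating cells came from them.

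Mki67 was the most widely detected of the 4 genes, with a UMI in 93.0% of wildtype and 94.9% of knockout proliferating cells, and reached 789 and 916 CPM (counts per 1000000 UMIs, mitochondrial genes left out). Top2a was detected in 81.3% and 89.8% at 700 and 762 CPM. Cdk1 (62.6% and 63.1%, 224 and 217 CPM) and Cenpf (60.8% and 61.8%, 185 and 193 CPM) were lower. All 4 genes were detected together in 67 of 171 and 63 of 157 cells. The number of their UMIs per cell ran from 3 to 110 in wildtype (median 14) and from 3 to 75 in the knockout (median 13). Cells with 10 or more made up 100 and 97 of the proliferating cells, and 27 and 12 cells stood exactly at the limit of 3.

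The limit cuts through a gradient. The summed level of the G2 and M phase list was 2104 CPM in wildtype keratinocytes with 0 UMIs of the 4 genes, 2216 CPM in those with 2, just outside the limit, and 2676 CPM in those with 3 or 4, just inside. It reached 5304 CPM with 5 to 9 UMIs and 11004 CPM with 10 or more. In the knockout the same steps were 2271, 2936, 3788, 5634 and 10467 CPM. Cells just inside the limit were thus closer to those outside than to the cells with 10 or more UMIs. The S phase list changed less, from 1281 CPM at 0 UMIs to 3167 CPM at 10 or more in wildtype and from 1404 to 2314 CPM in the knockout. At each step below 10 UMIs the knockout had the higher S phase level, most in cells with 5 to 9, at 3475 against 1802 CPM over 32 and 33 cells. The plot of both lists by the number of these UMIs shows the steps.

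**Figure D1:**
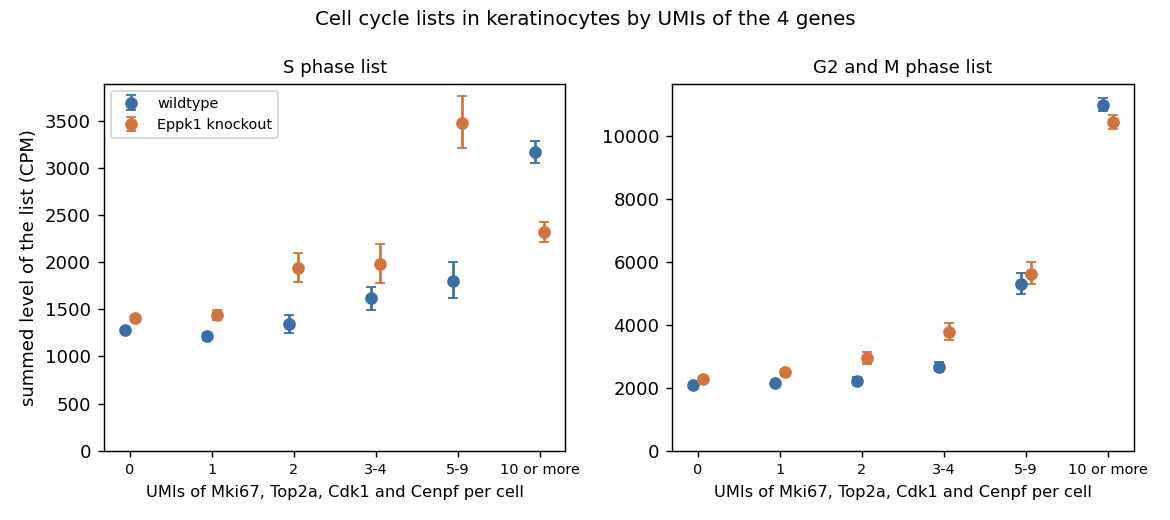
Summed level of the S phase list (left) and of the G2 and M phase list (right), in CPM, in keratinocytes grouped by their UMIs of Mki67, Top2a, Cdk1 and Cenpf, with exact Poisson 95% intervals. Cells with 3 or more UMIs are the proliferating keratinocytes, and the G2 and M phase level of those with 3 or 4 lies nearer to that of cells with 0 than to that of cells with 10 or more.

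The balance of S against G2 and M phase UMIs varied from cell to cell. At least 10 UMIs of the G2 and M phase list were found in 94.2% of wildtype and 96.8% of knockout proliferating cells, against 47.6% and 50.5% of keratinocytes with 0 UMIs of the 4 genes. For the S phase list the shares were 70.8% and 63.1% against 29.5% and 31.4%. These shares follow depth as well as level. The S phase list made up a median of 22.6% of the S, G2 and M UMIs of a wildtype proliferating cell, with quartiles at 13.8% and 37.1%, and a median of 20% in the knockout with quartiles at 11.1% and 35.5%. In other keratinocytes the median was 40% in both libraries and the spread was as wide, with quartiles at 28.9% and 51.9% in wildtype and at 28.6% and 50% in the knockout. More S than G2 and M UMIs were found in 12 of 171 wildtype cells (7.02%, 3.68 to 11.9) and 13 of 157 knockout cells (8.28%, 4.48 to 13.7), against 25.5% and 24.3% of other keratinocytes. The spread alone therefore does not show a difference in phase. All 4 selecting genes are known to peak late in the cell cycle, and how many cells in early S phase fell below the limit was not tested. The plot of single cells sets both lists against each other.

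**Figure D2:**
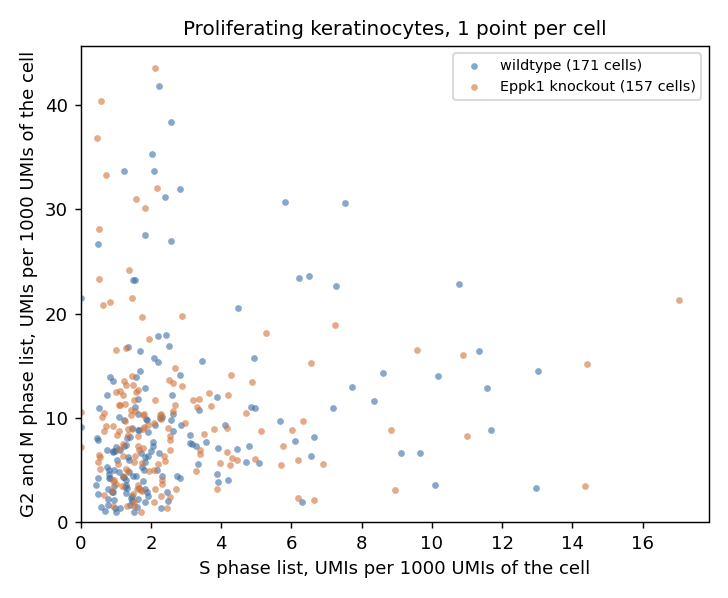
Each point is 1 of the 171 wildtype or 157 knockout proliferating keratinocytes, placed by its UMIs of the S phase list (horizontal) and of the G2 and M phase list (vertical) per 1000 UMIs. The genotypes overlap, and the 3 cells with the highest S phase values are from the knockout.

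Against keratinocytes with 0 UMIs of the 4 genes (other keratinocytes, 4942 wildtype and 3591 knockout cells), 265 of 4870 detected genes (5.44%) were higher by a log2 ratio of 1 or more in both libraries, and 56 of 4916 (1.14%) lower by as much. A gene entered the upward count when 25% or more of the proliferating cells of a library held a UMI of it, and the downward count when 25% or more of the proliferating or of the other cells did, without the selecting genes. The 10 highest, ordered by the ratio nearer 0 of both libraries, were Pbk, Iqgap3, Hmmr, Dlgap5, Bub1, Neil3, Nuf2, Hist1h3c, Cdca3 and Ncapg, from 9.66 to 7.84. Most of them act in mitosis, while Neil3 is a DNA repair glycosylase (74 against 2 UMIs in wildtype and 65 against 3 in the knockout) and Hist1h3c a histone of S phase. Lists were counted over genes with at least 50 UMIs in proliferating cells, of which 6.52% in all passed upwards. This limit lies on the group in which cell cycle genes are high, so it favours high ratios, and the counts and medians are descriptions. All 25 genes of the spindle and kinesin list passed a log2 ratio of 1 in both libraries, with medians of 7.01 in wildtype and 6.88 in the knockout, against 0.12 and 0.14 over all genes detected in proliferating cells. Kif11, the motor that pushes spindle poles apart, had 285 UMIs in the 171 wildtype proliferating cells and 38 in the 4942 other cells, and 284 against 15 in the knockout. Hmmr, a spindle assembly protein, had 219 against 8 UMIs and 195 against 5. Anln, a scaffold of the cytokinetic ring, reached 438 and 550 CPM against 5.88 and 7.66 CPM. Stmn1, which destabilises microtubules, was the most abundant gene of the list at 884 and 1004 CPM and was also seen outside it, at 98.1 and 124 CPM.

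Kinetochore and checkpoint genes followed the same pattern. Of the 21 centromere and kinetochore genes with at least 50 UMIs, 19 passed the log2 ratio of 1 in both libraries (medians 4.56 and 5.26), with Nuf2 of the Ndc80 complex at 71.3 and 51.2 CPM against 0.226 and 0.0964 CPM. Zwint, a kinetochore protein, was among the exceptions, at 85.0 and 75.9 CPM in proliferating and 73.1 and 80.7 CPM in other keratinocytes. The mitotic kinase and checkpoint list also had 19 of 21 past 1. Its member Pbk, a mitotic kinase, gave the highest ratio in both libraries among detected genes outside the rule, 141 against 3 UMIs in wildtype (log2 9.66) and 137 against 2 in the knockout (9.93). Bub1, a checkpoint kinase, had 68 against 3 and 67 against 2 UMIs. In the condensin and cohesin list 12 of 16 genes passed 1 in both libraries. The condensin subunits Ncapg (108 against 9 and 69 against 3 UMIs) and Ncapd2 (219 and 238 against 4.17 and 4.39 CPM) were among them. Stag2, a cohesin subunit that also acts in interphase, was at 204 and 241 CPM against 190 and 196 CPM.

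Replication genes had smaller ratios. In the licensing list 9 of 13 genes with at least 50 UMIs passed 1 in both libraries (medians 1.73 and 1.49), and in the replication fork list 16 of 20 (1.58 and 1.59). Mcm5, a subunit of the replicative helicase, was at 49.3 and 34.1 CPM against 3.59 and 4.82 CPM, whereas Mcm6 of the same complex was at 96.6 and 113 CPM against 53.6 and 55.2 CPM. Pcna, the sliding clamp of the polymerases, was abundant everywhere, 486 and 445 CPM in proliferating and 352 and 399 CPM in other keratinocytes. Clspn, a fork protein of the replication checkpoint, had 56 against 6 and 31 against 7 UMIs. Of 16 recombination repair genes only 5 reached 50 UMIs, and all 16 summed to 299 and 242 CPM against 16.1 and 16.4 CPM. Of 15 genes of nucleotide synthesis, 6 passed, among them Tk1, the thymidine kinase of S phase (42.2 and 30.7 CPM against 0.808 and 1.06), and Rrm1, the large subunit of ribonucleotide reductase (194 and 173 against 46.2 and 48.4 CPM). Impdh2 of purine synthesis was at 200 and 247 CPM against 199 and 218 CPM.

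Histone genes of the replication-linked clusters stood out after the values had been seen and were not on a list. The 10 Hist genes with at least 50 UMIs in proliferating cells summed to 3059 CPM (2972 to 3147) in wildtype and 2646 CPM (2553 to 2740) in knockout proliferating cells, against 422 and 441 CPM in other keratinocytes. Of these, 9 passed the log2 ratio of 1 in both libraries. Hist1h2ap had 945 and 564 UMIs in proliferating cells and 454 and 300 in all other keratinocytes, and Hist1h3c 116 and 83 against 3 and 5. Hist1h2bc was at log2 ratios of 0.56 and 0.52. Members of this family are near-identical copies, so the split of UMIs between them is uncertain.

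Of 15 cyclin and cyclin-dependent kinase genes with at least 50 UMIs, 8 passed 1 in both libraries. Ccna2, the cyclin of S phase and G2, had 341 UMIs in wildtype proliferating against 16 in other cells, and 211 against 16 in the knockout. Ccnb2 of mitosis had 268 against 50 and 196 against 46. The D cyclins, which act in G1, lay close in both groups, with Ccnd2 at 370 and 396 CPM against 332 and 338 CPM and Ccnd1 at 54.5 and 64.0 against 61.8 and 61.4 CPM. Of the transcription factors, Foxm1, an activator of mitotic genes, had 181 against 37 and 150 against 26 UMIs, while E2f4 was at 96.6 and 89.6 CPM against 101 and 107 CPM. The cell cycle inhibitor Cdkn1a was abundant in proliferating cells too, at 1435 and 1458 CPM against 1923 and 1761 CPM. It is the most abundant gene of the inhibitor list, whose sum was at -0.11 in wildtype. Of the 9 inhibitor genes with at least 50 UMIs, however, 4 passed 1 in both libraries and 0 passed -1, with medians of 1.01 and 0.74. None of the 14 genes of the Myc and ribosome biogenesis list with at least 50 UMIs passed 1 in either direction, and its medians were 0.03 and -0.03. Myc itself was at 876 and 897 CPM against 809 and 771 CPM. The plot of summed lists shows the order from spindle to granular layer genes.

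**Figure D3:**
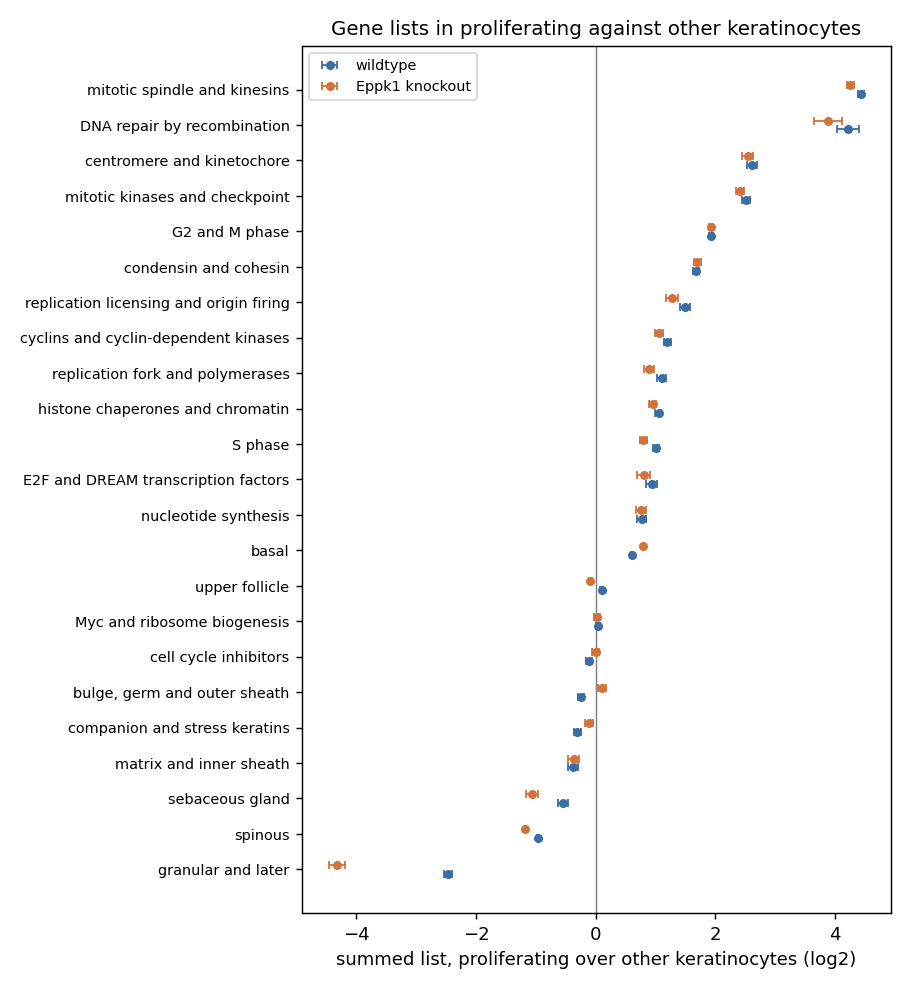
Log2 ratio of the summed level of each gene list in proliferating over other keratinocytes, for the wildtype and the knockout library, with exact conditional 95% intervals. Cell cycle lists other than the inhibitors (-0.11 in wildtype) lie to the right, Myc and ribosome biogenesis near 0, and spinous and granular lists to the left in both libraries.

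Most proliferating cells carried the keratins of the basal layer. Krt5, Krt14, Krt15 and Krt10 are among the genes that selected keratinocytes, so the keratin shares are descriptions. Krt1 and Krt10, keratins of the suprabasal layers, made up a median of 1.14% (wildtype) and 0.877% (knockout) of the UMIs of Krt5, Krt14, Krt15, Krt1 and Krt10 in a proliferating cell, against 3.84% and 4.17% in other keratinocytes. More Krt1 and Krt10 than Krt5, Krt14 and Krt15 UMIs were counted in 9 of 171 wildtype cells (5.26%, 2.43 to 9.76) and 6 of 157 knockout cells (3.82%, 1.42 to 8.13), against 25.2% and 30.4% of other keratinocytes. Without cells above 20000 UMIs, 12 in wildtype and 4 in the knockout, the shares were 1.26% and 2.61%. Krt14 was at 6817 and 7056 CPM in proliferating cells against 3645 and 3801 CPM. Itgb4, the hemidesmosome integrin, was at 374 and 497 CPM against 198 and 204 CPM. No basal list gene with at least 50 UMIs passed a log2 ratio of 1 in both libraries, and the list's medians were 0.48 and 0.83.

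Genes of differentiation were lower. The 10 lowest detected genes, by the ratio nearer 0, were Lor, Clic3, Kctd12, Krtdap, Elovl4, Sbsn, Spink5, Krt77, Krt1 and Calm4, from -5.19 to -1.78. In the spinous list 9 of 12 genes were at -1 or less in both libraries (medians -1.63 and -2.14), among them Krt10 with 2704 and 2125 CPM against 11219 and 11757 CPM and Krtdap with 869 and 508 against 3559 and 3172 CPM. In the granular list 8 of 9 were, against 1.86% of all 7041 genes with at least 50 UMIs in proliferating cells, with Lor, the main protein of the cornified envelope, at 55.8 and 39.2 CPM against 2048 and 1513 CPM. When only cells with Krt1 and Krt10 at 25% or less of the 5 keratins were compared, 161 and 147 proliferating cells, 193 genes were past 1 and 8 past -1 by the same rule, against 265 and 56. The desmosome genes had medians of -0.51 and -0.43, with Dsg3, the desmoglein of lower layers, higher (391 and 496 against 280 and 244 CPM) and Dsg1a, that of upper layers, lower (568 and 497 against 1547 and 1543 CPM).

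Follicle markers were shared unevenly. Krt17 was detected in 83.6% and 75.8% of proliferating cells against 58.7% and 53.2% of other keratinocytes, and Sox9, a follicle transcription factor, in 45.0% and 36.3% against 40.8% and 33.2%. The proliferating cells were deeper (medians of 7106 against 4472 and 6810 against 4458 UMIs), so such shares follow depth as well as level. Lgr5, a marker of follicle stem cells, was detected in 2 of 171 and 2 of 157 proliferating cells (1.17% and 1.27%) against 6.98% and 5.07% of the shallower other cells. Cd34, a bulge marker, was detected in 17% and 7.64% against 18.4% and 13.7%. Krt75 of the companion layer was detected in 0 of 171 wildtype cells, which allows up to 1.75% of cells with a UMI, and in 1 of 157 knockout cells.

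UMIs of other cell types' markers were common at low numbers. At least 2 UMIs of any of these lists were held by 39.8% of wildtype and 38.9% of knockout proliferating cells, against 27.7% and 25.8% of the shallower other keratinocytes, and fibroblast list genes alone by 23.4% and 24.8% against 15.5% and 14%. The immune list of 12 genes summed to 1770 UMIs in wildtype and 1192 in knockout proliferating cells, with Cd74, the invariant chain of antigen presentation, most abundant (780 and 738 CPM), and 9 wildtype and 5 knockout cells with 10 or more of these UMIs held 93.1% and 92.8% of them. In these cells Cd207, the langerin of Langerhans cells, had 83 UMIs in 2 wildtype cells and 172 in 3 knockout cells, while Cd3e of T cells had 12 UMIs in 3 wildtype cells and 0 in the knockout. Without these cells, 162 and 152 proliferating keratinocytes remained. Fibroblast list genes, led by Sparc, summed to 160 and 174 UMIs, and endothelial genes, led by Pecam1, to 9 and 40. The 4 collagen and matrix genes of the rule summed to 108 CPM in wildtype and 185 CPM in the knockout. Melanocyte genes summed to 4 and 0 UMIs and had 4 of 6 genes at 0, mast cell genes to 6 and 5, erythrocyte genes to 6 and 3, pericyte and muscle genes to 40 and 18, and Merkel cell and nerve genes to 34 and 11. The part of these cells in the differences between genotypes was not tested beyond the values given without them.

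Eppk1 (chr15:76101481-76120195, minus strand, GRCm38) was the gene with the lowest ratio of knockout to wildtype in proliferating cells, and the targeted gene of the design. It had 2414 UMIs in wildtype, 1566 CPM (1504 to 1629), and 184 in the knockout, 157 CPM (135 to 181), a log2 ratio of -3.31 (-3.54 to -3.10). In other keratinocytes the levels were 3003 and 802 CPM, a log2 ratio of -1.90. It was thus lower in proliferating than in other keratinocytes of both libraries, by log2 ratios of -0.94 in wildtype and -2.35 in the knockout. A UMI of Eppk1 was detected in 85.4% of wildtype and 29.9% of knockout proliferating cells, in 83.8% and 30.2% of other keratinocytes and in 21.1% and 8.29% of cells called fibroblasts. A single knockout cell held 28.3% of the Eppk1 UMIs of its group. Without the cell of each library that held most, the log2 ratio was -3.66. With no filter on cells, which added 4 wildtype and 5 knockout cells above 45000 UMIs, it was -1.03. Whether the probes for Eppk1 lie in the deleted part of the gene is not given in the sources used here.

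The other plakins, cytolinkers that join intermediate filaments to adhesion sites and other filaments, had log2 ratios between genotypes of -0.09 to 0.44. Plec, encoding plectin of the hemidesmosome, was at 837 CPM in wildtype and 1137 CPM in the knockout (log2 0.44, 0.33 to 0.55), and at 644 and 761 CPM in other keratinocytes. Over the alternatives its ratio stayed between 0.29 and 0.58, on both sides of the size limit of 0.5. Dsp of the desmosome was at 3460 and 3240 CPM (-0.09), and Ppl at 463 and 482 CPM (0.06). Evpl was at 253 and 259 CPM (0.04), Dst at 807 and 849 CPM (0.07) and Macf1 at 212 and 241 CPM (0.19). Ppl, Evpl, Dsp and Macf1 were lower in proliferating than in other keratinocytes of both libraries, with log2 ratios from -0.95 to -0.49, whereas Plec was higher (0.38 and 0.58). The plot of plakin levels sets the 4 groups side by side.

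**Figure D4:**
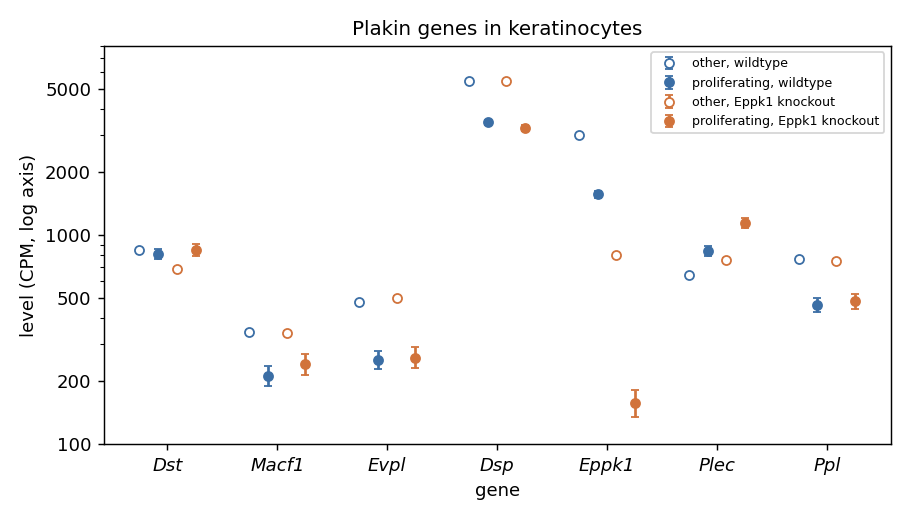
Level of the 7 plakin genes in CPM (log axis) in proliferating (filled) and other (open) keratinocytes of both libraries, with exact Poisson 95% intervals. Eppk1 is lowest in knockout proliferating cells at 157 CPM.

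Between genotypes, 159 of 4882 detected genes (3.26%) had a log2 ratio of 0.5 or more in proliferating keratinocytes. Another 230 (4.71%) had one of -0.5 or less. A gene was detected here when 25% or more of the proliferating cells of either library held a UMI of it. A gene can thus enter through 1 library alone, that in which more cells held it, so the limit favours large ratios. This need not be the library with the higher level. Hmox1 entered through the knockout (26.75% against 21.05% of cells), where its level was lower. The counts of detected genes past 0.5 or -0.5 are therefore descriptions. For 81.2% of the detected genes the counting interval held 0, and the median ratio was 0.02. Of the 159, 116 had the same sign in other keratinocytes and 3 passed 0.5 there, and of the 230, 175 had the same sign and 20 passed -0.5. The sums of the cell cycle lists other than recombination repair lay between -0.103 and 0.145. No detected gene of the G2 and M phase list passed 0.5 in either direction, and its sum was at a log2 ratio of 0.115 (0.077 to 0.15). Of the 18 detected S phase genes 0 were at 0.5 or more and 3 at -0.5 or less, against 3.26% and 4.71% of all detected genes. Of the 32 S phase genes with at least 50 UMIs, 22 were lower in the knockout, against 3474 of all 7056 such genes. The S phase sum was at -0.080 (-0.15 to -0.010). The sign of both sums changed with the setting, from -0.45 to 0.045 for S phase and from -0.072 to 0.18 for G2 and M phase. In the cells with 10 or more UMIs of the 4 genes the S phase sum was at -0.45 and the G2 and M phase sum at -0.072. The histone sum was at -0.21 (-0.28 to -0.14), with 8 of these 10 genes, chosen after their values were seen, lower in the knockout, against 3474 of all 7056 genes with at least 50 UMIs. The recombination repair sum was at -0.30 (-0.52 to -0.087) and stayed below 0 under all alternatives, between -0.75 and -0.20, on 461 and 284 UMIs. Its members lay on both sides of 0. Of the 5 with at least 50 UMIs, 3 were lower and 2 higher in the knockout.

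Single cell cycle genes are given with those below the detection limit included. E2f8, a repressor of the E2F family, was at 60.3 and 34.1 CPM (log2 -0.81, -1.39 to -0.27) and Aurka, the kinase of the spindle poles, at 46.0 and 26.5 CPM (-0.79, -1.46 to -0.17). Over the alternatives these stayed between -1.28 and -0.56 and between -1.18 and -0.66. Pimreg, a regulator of the metaphase to anaphase transition, had 56 and 16 UMIs (-1.38, -2.31 to -0.59). Cenpi of the kinetochore was higher, 32 against 42 UMIs (0.78, 0.09 to 1.5), and so was Cdc20, the activator of anaphase, at 263 and 360 CPM (0.45, 0.25 to 0.66). These rest on 1 library each, and the other members of their lists lay on both sides of 0.

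The basal list, which holds the selecting keratins Krt5, Krt14 and Krt15, and the hemidesmosome list lay on 1 side. All 9 hemidesmosome genes were higher in the knockout, against 2586 of all 4882 detected genes. All 14 basal list genes were higher too, and 7 genes are on both lists. The basal count includes Krt5, Krt14 and Krt15, which were used to select the cells, so it is a description only. The hemidesmosome list was set up with earlier results of these data known, so its count is a description too. The medians were 0.16 for the basal and 0.11 for the hemidesmosome list. In each list 1 gene was past 0.5, Itga6, at 712 and 1013 CPM (log2 0.51, 0.39 to 0.63). Lamb3 of laminin-332 was at 357 and 497 CPM (0.47) and Itgb4 at 374 and 497 CPM (0.41). Krt14 was at 0.050, and at -0.12 as a mean over cells. In other keratinocytes the sums of both lists were at 0.015 and 0.013. The proliferating sums of 0.21 and 0.24 ran from -0.036 to 0.27 and from 0.034 to 0.30 over the alternatives, both lowest with no filter on cells.

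Most genes of cholesterol synthesis had lower levels in the knockout. In the cholesterol synthesis list, which was set up after earlier results of these data were known, 16 of 18 genes with at least 50 UMIs were lower in the knockout, against 3474 of all 7056 such genes, and 8 of the 13 detected genes were at -0.5 or less, against 4.71% of all detected genes (median of the list -0.45). Cyp51, a sterol demethylase, was at 246 and 125 CPM (-0.97, -1.26 to -0.70), Insig1, the sterol sensor, at 83.7 and 37.5 CPM (-1.15), and Idi1 at 55.8 and 27.3 CPM (-1.02). Hmgcs1, the most abundant, was at 568 and 453 CPM (-0.32). The sum was at -0.455 (-0.53 to -0.39), against -0.15 in other keratinocytes, and ran from -0.63 to 0.092 over the alternatives, the last with no filter on cells. Of the YAP and TEAD target list, which was also set up with earlier results known, the sum was at -0.285 and ran from -0.45 to -0.18, against -0.446 in other keratinocytes. Of its 10 genes with at least 50 UMIs 8 were lower, against the same 3474 of 7056, among them F3, described below, and Lats2, a kinase of the Hippo pathway, at 49.9 and 23.9 CPM (-1.05).

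Differences in differentiation genes rested on few deep cells. The granular list sum was at -1.84 (-1.99 to -1.69), but single wildtype cells held 80.5% of the Cdsn UMIs and 63.5% of the Klk7 UMIs of their group, and the sum was at 0.72 with no filter on cells. Krt10 was at -0.35 and Krt1 at 0.02, and without cells above 20000 UMIs Krt1 was at 1.57. No direction was read from these lists. The plot of lists between genotypes gives these ranges.

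**Figure D5:**
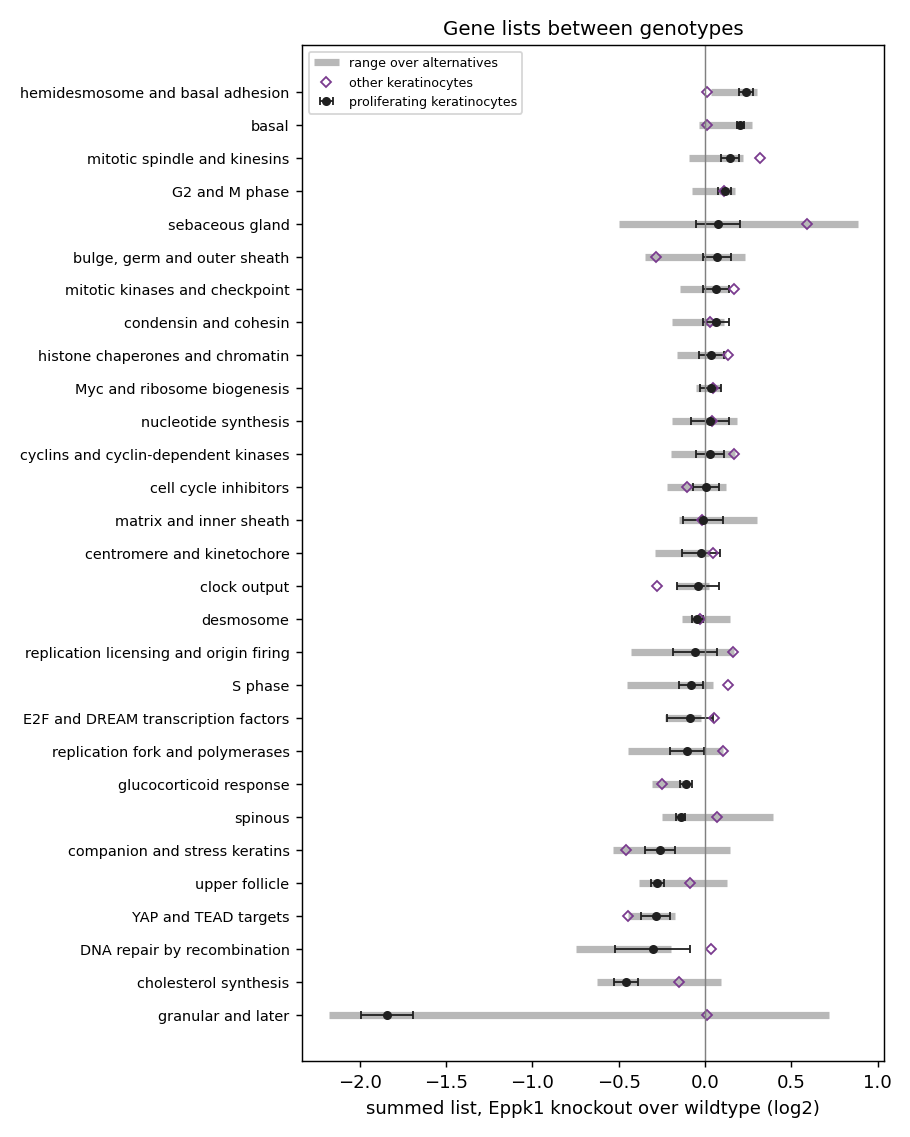
Log2 ratio of the summed level of each list, knockout over wildtype, in proliferating keratinocytes (points with exact conditional 95% intervals) and other keratinocytes (diamonds), with the range over the alternative settings as grey bars. Cell cycle lists other than recombination repair lie between -0.103 and 0.145, and the bar of the granular list spans both signs.

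The genes with the lowest ratios after Eppk1 are given singly, and no list of genes that respond to interferon was compared. Several met the detection limit only in wildtype, such as Fkbp5, detected in 25.7% of wildtype and 9.55% of knockout cells. Cxcl10, a chemokine, had 709 UMIs in wildtype and 157 in the knockout, 460 and 134 CPM (log2 -1.78, -2.04 to -1.53), with a UMI in 33.3% and 19.7% of cells. Igtp, an interferon-induced GTPase, was at 132 and 55.4 CPM (-1.25, -1.68 to -0.85). Single cells held 29.5% and 19.1% of their wildtype UMIs, and over the alternatives the ratios stayed between -2.50 and -0.74 and between -1.63 and -0.74. In other keratinocytes they were at -0.90 and -0.60, and Cxcl10 was higher in proliferating than in other keratinocytes of both libraries (log2 1.94 and 1.06). Fkbp5, a cochaperone induced by glucocorticoids, had 81 and 22 UMIs (-1.46, -2.24 to -0.79), close to its ratio of -1.48 in other keratinocytes. F3, the tissue factor of coagulation, was at 182 and 80.2 CPM (-1.18, and -0.41 without cells with 2 or more UMIs of another cell type's list) and Ugcg, which makes glucosylceramide, at 171 and 75.9 CPM (-1.16), the latter at 0.034 with no filter on cells. Pla2g2f, a secreted phospholipase of the upper layers, was at 579 and 253 CPM (-1.19) and at 0.25 with no filter on cells. The remaining 3 were Ppif (-1.26, with 42.5% of its wildtype UMIs in 1 cell), Dhx40 (-1.21) and Hmox1 (-1.23). Fkbp5, Ppif and Dhx40 came to -0.31, -0.30 and -0.050 under the alternative nearest 0. For Hmox1, which degrades heme, 1 wildtype cell held 63.4% of the UMIs and the ratio was 0.72 without the cells with 10 or more immune UMIs.

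The highest ratios belonged to genes of low abundance. Several of them met the detection limit only in the knockout, where they were higher, so the limit favours high ratios here. Mybl1 was detected in 15.2% of wildtype and 28.0% of knockout proliferating cells, and Ccdc88c in 18.7% and 31.9%. Mybl1, a transcription factor related to the activator of mitotic genes Mybl2, had 29 UMIs in wildtype and 55 in the knockout, 18.8 and 46.9 CPM (log2 1.31, 0.64 to 2.02), and stayed between 0.77 and 1.44 over the alternatives. It was higher in proliferating than in other keratinocytes, by log2 ratios of 1.48 in wildtype and 2.37 in the knockout. Il1r2, the decoy receptor of interleukin-1, was at 62.3 and 145 CPM (1.22, 0.85 to 1.60), with 35.3% of its knockout UMIs in 1 cell, and 0.41 with no filter on cells. Nedd9, a scaffold of focal adhesions, was at 88.2 and 172 CPM (0.96) and Fzd7, a Wnt receptor, at 84.3 and 164 CPM (0.96), against ratios of 0.038 and -0.11 in other keratinocytes. Their lowest alternatives were -0.054 for Nedd9, with a keratinocyte share of at least 3%, and 0.38 for Fzd7. Mapk8, the kinase JNK1, had 43 and 64 UMIs (0.96). Ccdc88c (1.03), Eogt (1.02), Tmcc1 (0.95), Hectd4 (0.94) and Yars2 (0.94) had 38 to 96 UMIs in each library.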

How the data were processed

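The 2 libraries were single-cell suspensions of dorsal skin, fixed and read with 10x Flex probes against the mouse transcriptome. The authors deposited 1 matrix of raw counts (UMIs) per library, made with Cell Ranger 8.0.1 on mm10 per the file headers and the labels, and no cell annotation. The filter on cells required a UMI total between 200 and 45000, between 100 and 7500 detected genes, and a mitochondrial share of 10% or lower. Doublets were not removed in the main setting, and removing cells in the top 5% by Scrublet score (scanpy 1.11.5) was an alternative. UMIs were summed over the cells of a group and divided by their total without 13 mitochondrial genes. Intervals at 95% were exact Poisson for levels, Clopper-Pearson for shares and exact conditional for ratios, to which 0.5 was added on each side of a sum. With 1 library per genotype no test was made, and sizes were set at a log2 ratio of 0.5 between genotypes and 1 against other keratinocytes. The computing of ratios and intervals was tested on simulated data. The simulated counts held Poisson error only, without variation between cells or animals. Genes were named by rule, as the 10 highest and 10 lowest of each comparison among detected genes, the plakins, the 4 selecting genes, and the most abundant and most extreme members of each list. Other genes in the text are known members of a list that were picked with their values in view, and values of some single genes are not reported here. The cells, lists and sizes were chosen with earlier results of these data known. Promoters were RefSeq windows of GRCm38.p6, of which the table held only some genes. Alternatives changed the cell filter, the limits of the rule, depth, scaling (edgeR 4.0.16, TMM factors) and the detection limit.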

Additional observations from a re-analysis of the deposited data

Results flagged for a closer look

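Keratinocytes outside the cell filter entered only the alternative with no filter on cells. They numbered 261 in wildtype and 176 in the knockout, and 4 (1.53%, 0.419 to 3.88) and 5 (2.84%, 0.929 to 6.5) of them held 3 or more UMIs of Mki67, Top2a, Cdk1 and Cenpf. Inside the filter the shares were 3.11% and 3.88%. All 9 had more than 45000 UMIs. With them the log2 ratio of Eppk1 between genotypes was -1.03 in place of -3.31, and that of the granular list 0.716 in place of -1.84. Whether they are single cells was not tested.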

How the results depend on the processing

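For the shares, the Eppk1 ratio, the counts of genes and the S and G2 and M phase sums, 166 alternative values were computed, of which 104 lay within the limits set by counting error or by 1.5 times a count and 62 moved past them. The Eppk1 ratio kept its sign in all of its alternatives. The sums of the S phase and of the G2 and M phase list, which were under the size limit, took both signs. Other values past 0.5 turned sign between genotypes: the granular list (-1.84 to 0.716), Hmox1 (-1.23 to 0.724), Pla2g2f (-1.19 to 0.25), Ugcg (-1.16 to 0.034) and Nedd9 (0.957 to -0.054), among others. The limit of 10 UMIs, the settings without cells above 20000 UMIs or with 10 or more immune UMIs, and the comparison among cells low in Krt1 and Krt10 were chosen after seeing the data. No paired analysis was possible because each genotype had 1 library, and no replicate could be left out.

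The share of proliferating keratinocytes followed the limit. In wildtype it was 4.17% at 2 or more UMIs of the 4 genes, 2.42% at 5 or more and 1.82% at 10 or more, and in the knockout 4.90%, 3.19% and 2.40%. With 1 or more UMIs after thinning to 2000 it was 5.72% and 6.61%. Without cells with 2 or more UMIs of another cell type's list it was 2.62% and 3.23%, and in wildtype 3.69% after thinning to 3000. It was higher in the knockout in each of these pairs. The share with more Krt1 and Krt10 was 1.03% in the knockout at 10 or more UMIs, and in wildtype 1.26% without cells above 20000 UMIs and 0.971% without cells with UMIs of another type.

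The log2 ratio of Eppk1 was -3.89 at 10 or more UMIs, -3.69 after thinning to 3000, -3.97 without cells with UMIs of another type and -1.03 with no cell filter. The S phase sum was 0.039 at 2 or more UMIs, -0.22 at 5 or more and -0.45 at 10 or more. It was 0.045 with a keratinocyte share of at least 3%, -0.176 with no cell filter, -0.153 without high Scrublet scores, 0.0095 without cells with UMIs of another type, -0.183 without shared droplets, -0.179 after thinning and -0.247 without cells above 20000 UMIs. The G2 and M phase sum was 0.176, -0.065 and -0.072 at those 3 limits. It was -0.047 with no cell filter, 0.049 without high Scrublet scores, -0.012 without cells with UMIs of another type, 0.025 without shared droplets, -0.034 after thinning, 0.069 as a mean over cells, 0.074 without cells with 10 or more immune UMIs and -0.019 without cells above 20000 UMIs.

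Counts of genes past a size limit moved with the cells and genes entered. Between genotypes 159 genes were higher and 230 lower. These became 311 and 354 with a keratinocyte share of at least 3%, 264 and 543 at 10 or more UMIs, 381 and 579 with 50 UMIs in place of detection, and 516 and 714 with detection in 10% of cells. The genes themselves changed more than the counts. After thinning 31 of 141 higher and 30 of 135 lower genes were also among the 159 and 230, and with no cell filter 59 of 134 and 124 of 241. There were 256 higher without cells with UMIs of another type and 135 lower after thinning. Against other keratinocytes 265 were higher and 56 lower. These became 431 and 122 at 10 or more UMIs, 166 and 11 at 2 or more, 459 with 50 UMIs in proliferating cells and 518 with 50 UMIs in both groups together, and 519 and 179 with detection in 10%. There were 107 higher after thinning. Lower were 96 at 5 or more UMIs, 25 with no cell filter, 95 with other keratinocytes weighted by depth and 8 among cells with Krt1 and Krt10 at 25% or less. Fewer cells or genes entered under several of these, and other causes were not tested.

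With 328 cells, depth limits what can be read. The counting interval of a ratio between genotypes reached a median of 0.61 log2 units to either side for genes with 50 to 200 UMIs and 0.147 for those from 1000 UMIs, and variation between animals was not measured.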

Other observations

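Lists that the comparisons above did not use gave the following values. The p53 target list had a log2 ratio between genotypes of -0.017 (-0.078 to 0.044) in proliferating keratinocytes, and the list of immediate early and heat shock genes, which also respond to tissue dissociation, was at -0.043 (-0.065 to -0.021). Immediate early and heat shock genes were close in proliferating and other keratinocytes, at log2 ratios of -0.0052 in wildtype and 0.11 in the knockout. The sebaceous gland list was lower in proliferating cells, at -0.55 and -1.06, and its ratio between genotypes of 0.078 ran from -0.50 to 0.89 over the alternatives. The glucocorticoid response list was at -0.11 in proliferating and -0.25 in other keratinocytes, and the clock output list at -0.038 and -0.28. Differences between these 2 groups of cells were not tested.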
